A study of Rattus norvegicus with 30 samples.

Results

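The genes described here encode the proteasome, its regulators and its assembly factors, measured in rat testis after mono-(2-ethylhexyl) phthalate (MEHP). They were chosen by symbol alone, as every non-control probe set with 1 annotated gene symbol that begins with Psm, a letter from a to g and a digit. This rule took 60 of 31042 probe sets, which stand for 46 of 14217 genes. Male Fischer rats of postnatal day 28 received 1 gavage of MEHP at 1 g/kg in corn oil, or corn oil alone, and testes were taken 1, 2, 3, 6 or 12 h later. The body makes MEHP from the plasticizer di-(2-ethylhexyl) phthalate, and in the testis it acts above all on Sertoli cells. There were 10 groups of 3 animals, the labels name no genetic change in any of them, and all 30 received the same vehicle. Total RNA of the testis was hybridised to 1 Affymetrix array per animal. In such bulk RNA, fewer cells of a type and less RNA per cell cannot be told apart.

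The proteasome is the protease that degrades proteins tagged with ubiquitin. Its 20S core is a barrel of outer alpha rings (Psma genes) and inner beta rings (Psmb genes), and 3 kinds of beta subunit cut peptide bonds. The 19S cap binds, unfolds and feeds in the substrate, with a base of ATPases (Psmc) and other subunits and a lid (Psmd). Interferons induce Psmb8, Psmb9 and Psmb10, whose products take the places of the catalytic subunits and form the immunoproteasome. The testis is known for a germ cell form of the core with the alpha subunit Psma8 and for the activator Psme4 (PA200), both needed in spermatogenesis.

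Of the 60 probe sets, 55 were bright enough to be tested, reaching the 40th percentile of signals in 3 or more arrays, and they covered all 46 genes. The other 5 were second probe sets of Psmb5 (2 of them), Psmc4, Psmd11 and Psme1, whose highest signals in any animal lay between 24.9 and 109.0. By role there were 7 alpha ring genes, 6 constitutive beta genes, the 3 immunoproteasome genes, 6 ATPases, 3 other base subunits, 8 lid subunits, 7 assembly chaperones and 4 activators or inhibitors. The 2 remaining genes, Psmc3ip, a cofactor of meiotic recombination, and Psme3ip1, have matching symbols but encode no subunit. The catalytic subunit gene Psmb6 and the activator gene Psme3 were represented only by probe sets that list several genes, and Psma8 and Psmb11 by none, so their levels are not reported.

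Promoters of 4 genes, each 250 bases before to 50 after the start site from RefSeq on GRCr8, show the sequences around which proteasome genes are usually grouped. Psmb3 is shown as the gene that passed the test, Psmb5 as a constitutive catalytic subunit, Psmb8 as its inducible counterpart, and Psmb9 as the inducible gene that shares an intergenic region with the peptide transporter gene Tap1. Capitals mark matches, on either strand, to 4 motifs: TGACNNNGC (the core of the antioxidant response element), CCAAT, the interferon stimulated response element core (10 bases) and TTCNNNGAA (the gamma activated site). The windows are chr10:83193537-83193836 on the plus strand for Psmb3, chr15:32047330-32047629 on the minus strand for Psmb5, chr20:4656982-4657281 on the minus strand for Psmb8 and chr20:4668750-4669049 on the plus strand for Psmb9.
Psmb3: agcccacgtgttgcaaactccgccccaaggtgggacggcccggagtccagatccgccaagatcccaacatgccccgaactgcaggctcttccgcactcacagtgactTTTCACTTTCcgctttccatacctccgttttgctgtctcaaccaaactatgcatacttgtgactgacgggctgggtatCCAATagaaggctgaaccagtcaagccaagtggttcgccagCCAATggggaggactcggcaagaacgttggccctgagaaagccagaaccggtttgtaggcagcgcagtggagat
Psmb5: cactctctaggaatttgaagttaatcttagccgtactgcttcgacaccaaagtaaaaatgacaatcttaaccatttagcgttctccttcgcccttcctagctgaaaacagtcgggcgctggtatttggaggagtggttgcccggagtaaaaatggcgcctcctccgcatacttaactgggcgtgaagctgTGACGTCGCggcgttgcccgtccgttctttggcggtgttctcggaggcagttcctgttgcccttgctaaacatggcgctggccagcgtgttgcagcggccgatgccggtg
Psmb8: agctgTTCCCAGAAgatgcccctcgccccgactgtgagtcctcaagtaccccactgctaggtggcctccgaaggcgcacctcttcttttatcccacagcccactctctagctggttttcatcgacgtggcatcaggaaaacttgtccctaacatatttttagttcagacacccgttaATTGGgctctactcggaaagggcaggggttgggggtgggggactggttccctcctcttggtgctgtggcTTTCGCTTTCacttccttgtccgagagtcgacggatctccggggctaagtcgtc
Psmb9: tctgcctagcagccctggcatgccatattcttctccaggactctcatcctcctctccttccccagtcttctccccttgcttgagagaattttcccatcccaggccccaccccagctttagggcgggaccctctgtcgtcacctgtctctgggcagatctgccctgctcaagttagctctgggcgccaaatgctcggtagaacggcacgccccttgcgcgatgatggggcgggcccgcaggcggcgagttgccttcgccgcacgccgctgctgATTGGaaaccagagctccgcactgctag

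The Psmb3 window held the interferon core at bases 108 to 117 and CCAAT at bases 186 to 190 and 227 to 231, counted from the 5′ end of the window. Psmb5 held the antioxidant core at bases 191 to 199 and no other match. Psmb8 held the gamma activated site at bases 6 to 14, CCAAT on the other strand at 178 to 182 and the interferon core at 247 to 256. Psmb9 held CCAAT on the other strand at bases 273 to 277, and its start site lay 457 bases from that of Tap1, which runs the other way from chr20:4668494-4668793. The Tap1 window held the interferon core at bases 130 to 139. That match lay between the start sites of Tap1 and Psmb9 but outside the Psmb9 window. Over the 42 of 46 genes with a promoter in the table (all but Psma7, Psmd6, Psmd12 and Psmd14), 22 (52.4%) held CCAAT, against 37.5% of 33469 rat promoters of that length. The antioxidant core was in 7 of 42 (16.7%) against 12.1% of all, the gamma activated site in 4 (9.52%) against 8.87%, and the interferon core in 7 (16.7%) against 3.92%. The 7 with the interferon core were Psma4, Psmb3, Psmb8, Psmb10, Psmd7, Psme2 and Psmg4. These matches are letters in a window and were not measured as binding sites.

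The arrays differed in ways that bear on the results. In the 2 h corn oil animals 7, 47 and 48, bacterial spike controls averaged 11.24, 11.92 and 12.18 (log2), against 10.91 to 11.23 in the 2 h MEHP animals. Animal 7 was thus close to the MEHP range, and animals 47 and 48 were the highest of all arrays, with 11.88 the next. Animal 48 also had the highest median signal of all arrays (165.4, lowest 117.2), the lowest RNA integrity number of those recorded (8.2, highest 10) and the lowest gavage volume (0.178 ml). The integrity numbers of the 2 h animals were all low, at 8.2 to 8.5 in both groups together. Among 12 h MEHP animals, animal 57 had the highest signal of the neutrophil gene S100a9 (5972, against 258 and 519 in animals 58 and 59 and 11.7 to 27.7 in corn oil animals). Markers showed the labelled tissue, with summed signals of 5 spermatocyte genes between 37494 and 51354 on every array and of 11 Sertoli genes between 38738 and 71931.

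Hardly any proteasome gene passed the test at any time. In limma with Benjamini-Hochberg adjustment over all 21190 probe sets tested, 0 of 55 rose at any time and 1, Psmb3, fell, at 2 h. The background was small at the early times: at 1 h 0% of all probe sets tested were called higher and 0% lower. At 2 h 0.222% were called higher and 0.439% lower, at 3 h 0.0425% and 0%, and at 6 h 0.179% and 0.0236%. At 12 h it was larger, 5.06% higher (1072) and 3.68% lower (780), and no proteasome probe set was among them. At an unadjusted p under 0.05 the members numbered 1, 13, 3, 2 and 3 of 55 at 1, 2, 3, 6 and 12 h. Of all probe sets tested, 2.44%, 14%, 10.1%, 5.17% and 20% had such a p at those times.

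The median difference over the 55 probe sets, MEHP minus corn oil on the log2(signal + 16) scale, was -0.0037, -0.077, -0.015, 0.0007 and -0.0041 at the times from 1 to 12 h. Over all probe sets tested the medians were -0.032, -0.011, 0.0067, 0.0040 and -0.044. The measurement was tighter than for most genes: the median residual SD between animals was 0.131 for proteasome probe sets and 0.237 for all, and their median signals were 2732 and 354. The part of the brighter signal in the smaller spread was not tested.

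The intervals give the sizes these data allow. At 12 h the 95% interval of 43 of the 46 genes (each read from its brightest probe set) lay within 1.5-fold in both directions, and the exceptions were Psmb9, Psme2 and Psmg4. At 1, 3 and 6 h 45, 44 and 44 of 46 lay within 1.5-fold, and at 2 h 40. Averaged over the 5 times, all 46 did, with the lowest bound at -0.41 (Psmb9) and the highest at 0.23 (Psmd1). No member passed the test of this mean difference (2.4% of all tested did), of a change of the difference over the times (2.87%), of 12 h against 6 h (1.5%) or of differences between times among corn oil animals (0.033%). With 3 animals a group, a difference that missed the threshold is not shown to be 0.

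**Figure D1:**
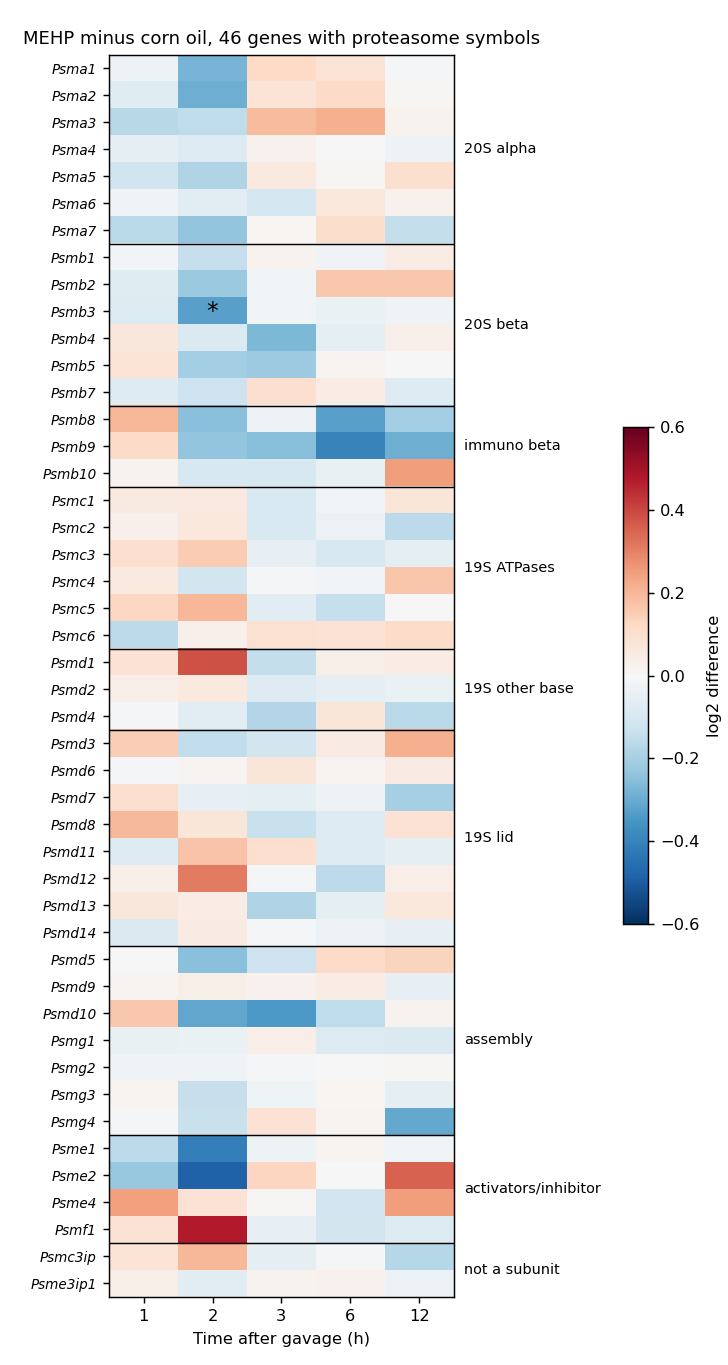
Difference of MEHP and corn oil means (log2, colour) for each of the 46 genes (rows, grouped by role) at 5 times after gavage (columns, h). The star marks Psmb3 at 2 h, the 1 difference that passed the test; at 2 h the 16 rows of the 20S core are all below 0.

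At 2 h the genes of the 20S core were below corn oil, and the direction of the 19S cap turned on 1 control animal. All 16 core genes with a probe set were below corn oil, with a median of -0.19, where 51.7% of all probe sets tested were. Without animal 7 this was 14 of 16, with a median of -0.16, where 59% of all probe sets tested were below. Without any other 2 h animal it was all 16. Of 17 cap genes 13 were above corn oil, with a median of 0.058, where 48.3% of all were. Without animal 48 only 7 of the 17 were above it, with a median of -0.029, where 53.1% of all were. Without any other 2 h animal 12 or 13 of the 17 were above it. These counts read each gene from its brightest probe set. Of the dimmer cap probe sets, those of Psmd7 (-0.32), Psmd14 (-0.25) and Psmd11 (-0.17) were below corn oil without overlap. One of Psmc6 was above without overlap (0.27), and others of Psmc6 (-0.12) and Psmd14 (-0.01) overlapped. The mean log2 signal of the 16 core genes was 11.76, 11.59 and 11.68 in corn oil animals 7, 47 and 48 and 11.45, 11.51 and 11.52 in MEHP animals 43, 44 and 45. The groups did not overlap in this core mean, and animals 7 and 48 were the highest of all 30 arrays. The cap mean was 11.85, 11.71 and 11.55 in the corn oil animals and 11.78, 11.75 and 11.79 in the MEHP animals, which lay between them.

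Of the 55 probe sets, 18 (32.7%) had all 3 MEHP animals below all 3 corn oil animals at 2 h, where 11.6% of all tested did, and 4 (7.27%) had them all above, where 7.33% did. With animal 48 left out the count below was 21, against 14.6% of all probe sets, and with animal 7 left out 19, against 26.2%. Set against the 1 h corn oil animals instead, which was tried with the 2 h values known, 3 of 55 lay wholly below, where 5.35% of all did. In that comparison, which mixes time with treatment, 0 of 55 passed the test, and only 4 of all 21190 probe sets did. Other lists were below corn oil at 2 h too: all 11 Sertoli markers were below corn oil (summed signal 44634 to 47126 against 48554 to 71931, 0 called) and all 8 macrophage markers (1480 to 1526 against 1700 to 2254, 1 called). Of all probe sets tested 0.439% were called lower at that time. The part of the spike level, RNA integrity and these markers in the core's difference was not tested.

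**Figure D2:**
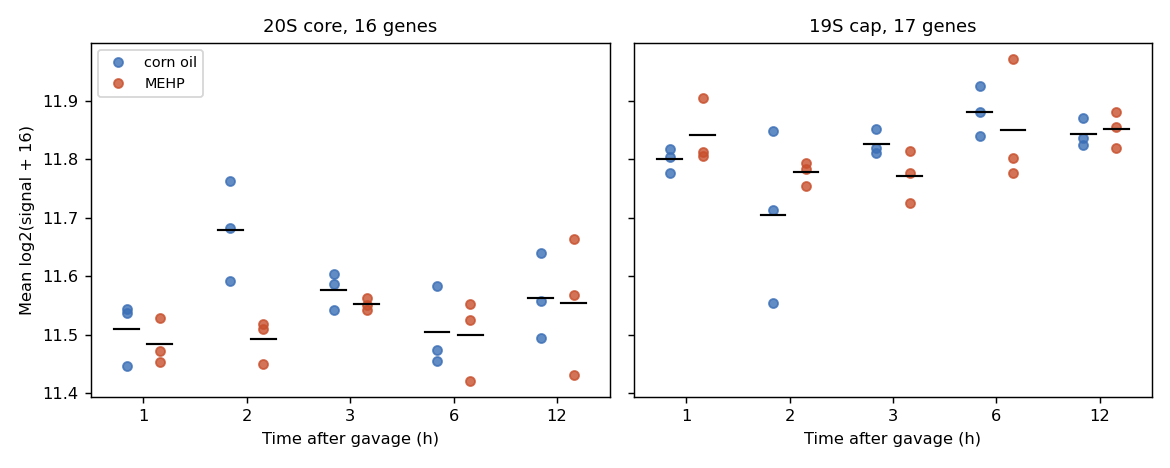
Mean log2(signal + 16) of 16 core genes (left) and 17 cap genes (right) in each animal (points; blue corn oil, red MEHP) by time after gavage (h), with black bars at group means; the vertical axes do not start at 0. The 2 h corn oil animals lie between 11.59 and 11.76 in the core panel, above the 2 h MEHP animals.

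Psmb3, the beta-3 subunit, which has no catalytic site, was the member that passed. Its signal was 4162, 3920 and 4634 in the 2 h corn oil animals and 3324, 3424 and 3350 in the MEHP animals, so the groups did not overlap. The difference was -0.33 ± 0.07 (SE, n = 3 and 3; adjusted p = 0.042 in limma), a signal 0.797 times that of corn oil. The MEHP values lay among those of corn oil animals at the other times (3311 to 4064), whereas 2 of the 3 corn oil animals of 2 h lay above them. Without animal 48 the difference was -0.26 (adjusted p = 0.20), and leaving out any of the 3 MEHP animals also ended the call (0.13 to 0.14). Against the 1 h corn oil animals it was -0.057. At 12 h it was -0.02 ± 0.07.

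The other alpha and constitutive beta genes did not pass at any time. Psma2 (-0.29 ± 0.11), Psma1 (-0.28 ± 0.14) and Psma7 (-0.24 ± 0.13) were the next lowest of the 2 rings at 2 h with adjusted p of 0.21, 0.36 and 0.41. At 12 h the 7 alpha ring genes lay between -0.14 (Psma7) and 0.10 (Psma5) and the 6 beta genes between -0.08 (Psmb7) and 0.16 (Psmb2). At 6 h all 7 alpha ring genes were above corn oil, by 0.0015 (Psma4) to 0.21 (Psma3), and none passed.

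The catalytic subunit genes measured as constitutive forms were Psmb5, which encodes the chymotrypsin-like activity, and Psmb7, the trypsin-like one. Psmb5 read 8057, 7351 and 6960 in the 2 h corn oil animals and 6728, 6109 and 6527 in the MEHP animals, without overlap (-0.21 ± 0.10, adjusted p = 0.37). At 3 h the groups again did not overlap, at 7188, 7198 and 7546 after corn oil and 4993, 6981 and 7127 after MEHP (-0.22 ± 0.10, adjusted p = 0.48). Animal 49 was low, and without it the difference was -0.051. At 12 h Psmb5 read 6851, 7357 and 7622 after corn oil and 7316, 7623 and 6830 after MEHP, a difference of -0.0041 with an interval of -0.21 to 0.20. Psmb7 read 6912, 6495 and 7276 against 7203, 6226 and 6183 at 12 h (-0.08 ± 0.08), and its widest difference was at 2 h (-0.12 ± 0.08).

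The inducible catalytic subunits, which take the places of Psmb5 (Psmb8), Psmb6 (Psmb9) and Psmb7 (Psmb10), were not called at any time either. Psmb8 read 324, 286 and 377 in 12 h corn oil animals and 271, 363 and 228 in MEHP animals, which overlap (-0.20 ± 0.14, adjusted p = 0.46). Psmb9 read 389, 368 and 509 against 357, 415 and 261 (-0.29 ± 0.21, adjusted p = 0.50). Psmb8 and Psmb9 were below corn oil at 2, 3, 6 and 12 h and above it at 1 h. Their widest gap was at 6 h, when Psmb8 read 289, 341 and 327 against 236, 269 and 248 without overlap (-0.33 ± 0.14, adjusted p = 0.81). At that time Psmb9 read 363, 517 and 471 against 276, 369 and 365 (-0.40 ± 0.21, adjusted p = 0.999).

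Psmb10 differed in sign from the other inducible subunits at 12 h. It read 832, 814 and 778 after corn oil and 1197, 979 and 766 after MEHP, where animals 57 and 58 were above and animal 59 below the corn oil range (0.25 ± 0.14, adjusted p = 0.33). Without animal 57, the one with the highest S100a9, the difference was 0.099. At 1 to 6 h Psmb10 lay between -0.10 and 0.02.

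**Figure D3:**
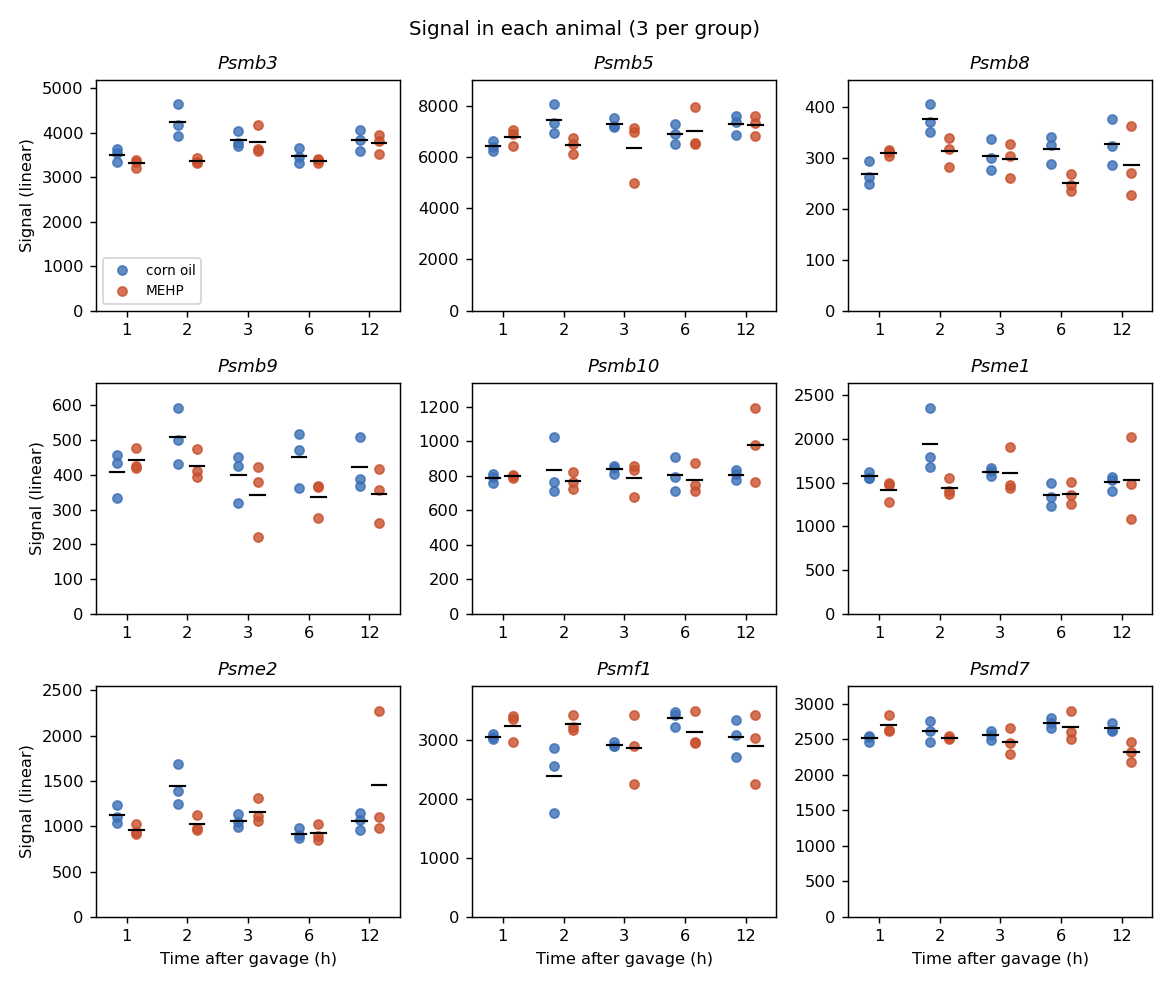
Linear signal of 9 genes in each animal (points; blue corn oil, red MEHP) by time after gavage (h), with black bars at the group means of 3 animals. In Psmb3, Psme1 and Psme2 the MEHP animals of 2 h lie below the corn oil animals of 2 h and among those of other times. In Psme2 1 MEHP animal of 12 h stands above the rest at 2277.

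The activators open the gate of the core without ubiquitin. Psme1 and Psme2 encode the interferon-inducible PA28 alpha and beta, and at 2 h they had the largest decreases of the 46 genes. Psme2 read 1392, 1242 and 1686 in corn oil animals and 985, 1121 and 954 in MEHP animals (-0.48 ± 0.19, adjusted p = 0.24), and Psme1 read 1795, 1679 and 2360 against 1373, 1406 and 1555 (-0.41 ± 0.16, adjusted p = 0.22). Neither overlapped and neither passed. Without animal 48, the highest in both, the differences were -0.36 and -0.26. The MEHP values lay among those of corn oil animals at the other times (866 to 1232 for Psme2 and 1235 to 1672 for Psme1). The corn oil animals of 2 h all lay above these ranges. Against the 1 h corn oil animals the differences were -0.14 and -0.13.

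At 12 h Psme2 read 1150, 958 and 1064 after corn oil and 2277, 1107 and 981 after MEHP, the largest increase of the 46 genes at that time (0.36 ± 0.19, adjusted p = 0.31). This rested on animal 57, without which it was -0.017. Psme1 was likewise high in animal 57 alone (2028, against 1487 and 1083 in the other MEHP animals and 1408 to 1569 after corn oil; -0.02 ± 0.16). Among the 6 animals of 12 h the same one had the highest signals of Tap1 (333, against 54.1 to 121 after corn oil) and B2m (9111, against 4444 to 6066), but not of Psmb8 or Psmb9. Animal 57 also stood apart in genes not named here as inducible. Psma5 read 5659 (3878 to 4151 after corn oil), Psmb2 5003 (3377 to 3847) and Psmd5 1680 (1052 to 1156). Psmg4 (2481), Psmf1 (2263) and Psmc2 (9740) were below all corn oil animals of that time. The residual SD of animal 57 was the highest of all arrays (0.421), with animal 58 next (0.420). The part of neutrophil or macrophage RNA was not tested. The 2 neutrophil genes measured summed to 375 to 7358 after MEHP and 15.8 to 30.6 after corn oil. The 8 macrophage genes summed to 2654 to 3578 and 1632 to 1838. Of each list 2 were called higher, where 5.06% of all probe sets tested were.

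Psme4, the PA200 activator of germ cells, was measured by 3 probe sets. The brightest read 3058, 3802 and 3305 in 12 h corn oil animals and 3686, 4425 and 3962 in MEHP animals, overlapping (0.25 ± 0.11, adjusted p = 0.19), and the others differed by 0.16 and 0.21 in the same direction. At 1 h its MEHP animals (3487, 3004 and 3480) were above all corn oil animals (2791, 2831 and 2752; 0.25 ± 0.11, adjusted p = 0.94). Of the other Psme4 probe sets, 1 was at 0.23 there, also without overlap, and 1 was at -0.08. Psmf1 encodes PI31, which inhibits the core in vitro. It had the largest increase of the 46 genes at 2 h, at 2874, 2568 and 1760 after corn oil and 3178, 3437 and 3223 after MEHP without overlap (0.48 ± 0.15, adjusted p = 0.15). Without the low animal 48 the difference was 0.27, and without animal 7 it was 0.62 and passed (adjusted p = 0.049). The MEHP values of Psmf1 lay among those of corn oil animals at the other times (2718 to 3484). Corn oil animals 47 and 48 of 2 h lay below that range. Against the 1 h corn oil animals the difference was 0.10.

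In the cap, Psmd7, the Rpn8 partner of the deubiquitinase Psmd14, came nearest to the threshold at 12 h. Its brightest probe set read 2728, 2628 and 2612 after corn oil and 2177, 2458 and 2315 after MEHP, with no overlap (-0.20 ± 0.07, adjusted p = 0.090), and the other gave -0.05. Without animal 58 it passed (-0.24, adjusted p = 0.043), and without animal 57 it was -0.15. At 2 h the other probe set of Psmd7 was at -0.32 ± 0.09 without overlap (adjusted p = 0.086 in limma), and the brightest was at -0.05. At 12 h 2 of 55 proteasome probe sets lay wholly above corn oil (10.2% of all tested) and 4 wholly below (11.5%), the latter for Psmd4, the ubiquitin receptor, Psmd7, the assembly chaperone Psmg1 and Psmc3ip. At 2 h the scaffold subunit Psmd1 (0.38 ± 0.17, adjusted p = 0.30) and the lid subunit Psmd12 (0.31 ± 0.10, adjusted p = 0.17) were the largest increases after Psmf1. Against the 1 h corn oil animals they were at -0.018 and -0.022. The 6 ATPases, which unfold the substrate, lay between -0.16 (Psmc2) and 0.17 (Psmc4) at 12 h.

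Among the chaperones that assemble the particle, Psmg4 had the lowest difference of the 46 genes at 12 h. It read 4530, 4080 and 4299 after corn oil and 2481, 4515 and 3742 after MEHP (-0.31 ± 0.15, adjusted p = 0.24). Animal 57 was the low one, without it the difference was -0.065, and without animal 58 it passed (-0.49, adjusted p = 0.020). Psmd10 (gankyrin) was below corn oil at 2 h (-0.31 ± 0.14, adjusted p = 0.32) and at 3 h (-0.35 ± 0.14, adjusted p = 0.48), the lowest of the 46 genes at 3 h. The other assembly genes Psmg1, Psmg2, Psmg3, Psmd5 and Psmd9 lay between -0.09 and 0.13 at 12 h. For Psmc6, Psmd11, Psmd14, Psmd9 and Psme4 the probe sets of the gene disagreed in sign at 2 h, none of them called. The 2 genes that encode no subunit did not pass, with Psmc3ip at 0.20 ± 0.10 at 2 h and -0.17 ± 0.10 at 12 h.

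Genes outside the symbol rule gave the surroundings. Of 27 measured partners (the maturation factor Pomp, cap-associated enzymes, shuttle proteins and the transcription factors of proteasome genes), 1 fell at 12 h, where 3.68% of all probe sets tested did. This was the ubiquitin shuttle gene Ubqln2. It read 2106, 1659 and 2249 after corn oil and 938, 1093 and 1356 after MEHP (-0.82 ± 0.20, adjusted p = 0.0079). The transcription factor genes Nfe2l1 (0.05 ± 0.14), which restores proteasome synthesis after inhibition, and Nfe2l2 (0.19 ± 0.09) did not pass, nor did Pomp (0.19 ± 0.09, adjusted p = 0.26). The median of the 27 was 0.053.

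Several regulators of antigen processing and interferon response passed at 12 h. All 15 measured were above corn oil at 12 h, with a median of 0.33, and 4 rose, where 5.06% of all probe sets tested did. Irf1, a transcription factor that drives the inducible subunits, read 317, 217 and 349 after corn oil and 1417, 744 and 1090 after MEHP (1.80 ± 0.21, adjusted p = 2.1e-06). Nfkb1 rose by 2.10 ± 0.25 (adjusted p = 4.5e-06), the interferon gamma receptor gene Ifngr2 by 0.86 ± 0.18 (adjusted p = 0.0020) and Stat2 by 0.50 ± 0.14 (adjusted p = 0.025). Tap1, the neighbour of Psmb9, was at 0.86 ± 0.29 (adjusted p = 0.063), while Psmb9 was at -0.29. The 7 genes with the interferon core in their promoter window were not called at 12 h, with 2 above 0 (Psme2 and Psmb10) and 5 below. Psmb9 was not counted among them, since the core between its start site and that of Tap1 lay outside its window.

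**Figure D4:**
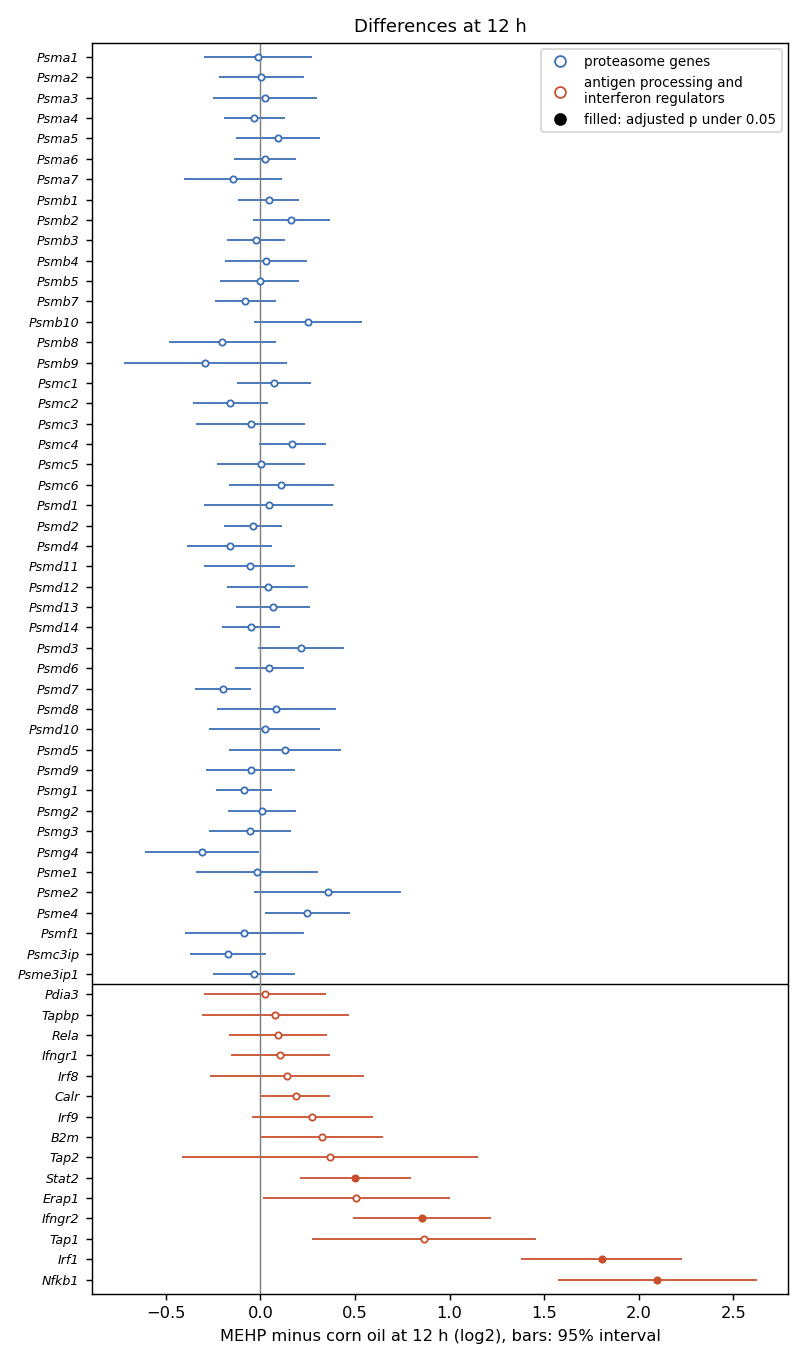
MEHP minus corn oil at 12 h (log2, points) with 95% intervals (bars) for the 46 genes (blue) and 15 antigen processing and interferon regulators (red); filled points passed the test. No blue point is filled, and the filled red points are Stat2, Ifngr2, Irf1 and Nfkb1.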

How the data were processed

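Testis RNA of 30 rats was measured on 30 1-colour Affymetrix Rat230_2 arrays. Each deposited value is a linear intensity that the authors had scaled. GCOS 1.0 appears in the submitters' processing notes, and how probes were summarised, or to which target arrays were scaled, is not given in the sources used. All arrays had a 2% trimmed mean of 500.1 to 500.2. The labels give group and animal number. Of 31099 probe sets, 57 controls were left out. Tests ran on log2(signal + 16), a scale that understates changes of dim probe sets. One mean per group was fitted in limma 3.58.1 (R 4.3.3) to the 21190 probe sets that passed the filter, with an intensity trend and 24.2 degrees of freedom in all (20 of them residual). P values were adjusted by Benjamini-Hochberg per contrast, with a threshold of 0.05.

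Members, lists, motifs and tests were chosen with earlier results of these data known. The brightest probe set stood for a gene. Named with every animal's value were members that passed and catalytic, inducible, activator and inhibitor genes, whatever their values, then up to 3 increases and decreases per time; values per animal of Psmd7, Psmg4 and genes outside the rule were added after their values were seen. Symbols are those of the platform annotation, and all 46 genes were matched to RefSeq by gene number. Of the fixed lists, 27 of 34 partners and 15 of 17 regulators had a tested probe set. Marker lists of Leydig (4 of 6 measured fell and 1 rose at 12 h), peritubular myoid (4 of 5 rose), endothelial (1 of 4 rose), spermatogonial (0 of 5 changed), spermatid (0 of 3) and lymphocyte (0 of 5) genes were measured too. Of all probe sets tested 5.06% rose and 3.68% fell at 12 h. Alternatives were 2 other pseudocounts, 2 other filters, 2 scalings, each time alone, array weights, no trend, 4 covariates and leaving out each animal.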

Additional observations from a re-analysis of the deposited data

Results flagged for a closer look

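No proteasome gene had a difference that changed over the times beyond the threshold. Among the regulators outside the symbol rule, the MEHP difference of Irf1 was larger at 12 h than at 6 h by 1.18 ± 0.29 (log2; adjusted p = 0.038 in limma), and the test over all times gave an adjusted p of 0.0040. Nfkb1 differed between 12 h and 6 h by 1.62 ± 0.36 (adjusted p = 0.020; over all times 0.0027). For Ifngr2 the differences varied over the times (adjusted p = 0.032), without passing between 12 h and 6 h (0.29 ± 0.25, adjusted p = 0.80). Groups of 3 animals are too small for a test of single animals that lie far from the others.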

How the results depend on the processing

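Between 1 and 6 h, other than at 2 h, 0 proteasome probe sets were called under all 13 alternatives and all 30 fits that left out an animal. At 2 h the count called lower, 1 as fitted, was 0 without the filter, with arrays centred on their median, with each time alone, without the trend, with the spike level or the RNA integrity number as a covariate, and against the 1 h corn oil animals (added after the data were seen), 2 with the array median or gavage volume as a covariate, and 0 to 2 over the animals left out. The count called higher was 1 with the array median as a covariate and 0 to 1 over the animals left out. Of all 21190 probe sets tested, 140 were called at 2 h as fitted, in either direction. With the array median it was 652, with gavage volume 205, and over the animals left out 11 to 330. Psmb3 at 2 h was called in 25 of 43 alternatives (-0.38 to -0.22, adjusted p 4.9e-05 to 0.37). Many of these left out an animal of another time, which cannot move the 2 h difference but can move its adjusted p. The call was lost without animal 31, 32, 34, 36, 38, 40, 52 or 62. Of the fits without a 2 h animal, only those without animal 7 or animal 47 kept the call. The 2 h median moved from -0.077 to -0.20 with the spike level as a covariate, -0.044 with arrays centred, -0.022 against the 1 h corn oil animals and -0.013 with array weights (-0.12 to -0.031 over the animals left out); the cause was not tested.

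At 12 h 1 was called higher with gavage volume (Psme4) and 1 lower with the array median (Psmd7), and 0 to 2 lower over the animals left out. Of all 21190 probe sets 1852 were called at 12 h as fitted, 2474 with gavage volume and 2710 with the array median. Over the animals left out it was 1015 to 2686, the highest without animal 58, the fit that called 2. Array weights stand apart: 8 were called higher and 16 lower at 2 h, and 3 higher and 10 lower at 12 h, among 7798 and 5569 of all 21190. That estimate stopped before it converged, with weights from 0.104 to 176 (animal 47), so nearly all weight of the 2 h controls lay on 1 array. Psmd7 at 12 h was called in 3 of 43 alternatives. Over the alternatives the medians changed sign at every time but 2 h, running from -0.041 to 0.059 at 1 h, -0.084 to 0.041 at 3 h, -0.047 to 0.031 at 6 h and -0.048 to 0.0087 at 12 h. No paired analysis was possible because animal numbers are unique to each animal. Array number limits the precision: with 3 animals a group the median standard error of a proteasome gene was 0.108.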
